A study of Mus musculus with 4 samples.

Results

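The small nucleolar RNAs and their Cajal body relatives were taken from the count table by name. Members were chosen by their summed reads: they are the rows whose symbol starts with Snord, Snora or Scarna and that hold at least 10 reads over the 4 libraries: 92 of the 23337 gene rows, made up of 54 Snord, 31 Snora and 7 Scarna rows. The tissue was dissected cardiac cushion, the swellings that form the valves of the outflow tract and atrioventricular canal, from C57BL/6 mouse embryos at embryonic day 14.5. There were 2 libraries labelled wildtype and 2 labelled as mutants of genotype Nfatc1Cre;Brg1F/F, in which Cre made under Nfatc1 acts on floxed Brg1, the catalytic subunit of SWI/SNF chromatin remodellers, whose symbol is Smarca4. The series describes them as paired samples of mutants and littermates, and replicates 1 and 2 are called pair 1 and pair 2 here. Nfatc1 marks the endocardium, so other cells of the cushion need not carry the deletion. Neither the alleles of the wildtype littermates beyond that word nor the number of embryos in a library is stated in the labels, so a p-value measures only the spread between libraries, which may be technical. Cushions were dissected by the green fluorescence of a Cre reporter, and total RNA was depleted of ribosomal RNA before ScriptSeq library preparation.

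Small nucleolar RNAs guide the chemical modification of other RNAs by base pairing. Box C/D RNAs, named Snord, direct 2'-O-methylation by fibrillarin, and box H/ACA RNAs, named Snora, direct pseudouridylation by dyskerin; their main targets are the ribosomal RNAs, while a few box C/D and H/ACA RNAs act in ribosomal RNA cleavage. The small Cajal body RNAs, named Scarna, carry one or both kinds of box and guide modification of the spliceosomal small nuclear RNAs. In mammals most of them are cut from introns of a host gene after splicing, so one gene can give both a messenger RNA and a guide RNA.

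The sequences of 8 rows named in the results are given in 5′ to 3′ direction, Scarna10 by its first and last 120 of 325 bases. They are as annotated in GENCODE M21 on mm10 and written as DNA. The first 6 are among the 8 most abundant rows, Snora65 has the common length of a Snora row, and Snord12 had the lowest genotype p. Capitals mark the box C core TGATGA in the first 20 bases and the box D CTGA in the last 15 bases of C/D rows, and the box ACA in the last 8 bases of H/ACA rows.
Scarna10, bases 1 to 120: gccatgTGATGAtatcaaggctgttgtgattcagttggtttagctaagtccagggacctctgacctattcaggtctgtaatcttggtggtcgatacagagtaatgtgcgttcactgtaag
Scarna10, bases 206 to 325: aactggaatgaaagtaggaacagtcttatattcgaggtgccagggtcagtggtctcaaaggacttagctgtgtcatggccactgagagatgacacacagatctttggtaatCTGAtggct
Scarna13: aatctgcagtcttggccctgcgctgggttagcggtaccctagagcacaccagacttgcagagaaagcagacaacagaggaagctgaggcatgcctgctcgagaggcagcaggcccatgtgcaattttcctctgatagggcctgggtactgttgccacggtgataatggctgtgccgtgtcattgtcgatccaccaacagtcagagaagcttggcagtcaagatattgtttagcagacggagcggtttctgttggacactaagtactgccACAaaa
Scarna6: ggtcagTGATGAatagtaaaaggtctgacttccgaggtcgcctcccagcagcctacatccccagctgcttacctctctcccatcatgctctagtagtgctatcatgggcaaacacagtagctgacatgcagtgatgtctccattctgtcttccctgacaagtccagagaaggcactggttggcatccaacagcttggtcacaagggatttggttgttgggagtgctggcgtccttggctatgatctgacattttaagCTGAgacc
Snord17: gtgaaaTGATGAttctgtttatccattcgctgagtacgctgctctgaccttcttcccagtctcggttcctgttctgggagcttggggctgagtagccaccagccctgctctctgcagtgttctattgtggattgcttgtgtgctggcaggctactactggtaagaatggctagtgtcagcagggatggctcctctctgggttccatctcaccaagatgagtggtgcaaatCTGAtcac
Snord2: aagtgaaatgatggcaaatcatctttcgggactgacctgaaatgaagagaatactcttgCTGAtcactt
Snora23: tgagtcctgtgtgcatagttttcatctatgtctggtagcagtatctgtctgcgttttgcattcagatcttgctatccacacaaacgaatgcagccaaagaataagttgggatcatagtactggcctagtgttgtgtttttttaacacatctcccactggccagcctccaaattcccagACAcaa
Snora65: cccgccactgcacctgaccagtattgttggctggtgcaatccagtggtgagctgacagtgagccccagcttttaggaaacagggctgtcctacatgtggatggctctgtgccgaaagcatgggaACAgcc
Snord12: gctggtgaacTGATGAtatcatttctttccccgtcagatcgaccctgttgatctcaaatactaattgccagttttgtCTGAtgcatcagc

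Scarna10 lies on the minus strand at chr6:125186359-125186683 in Ncapd2, where it overlaps an exon of some transcript. Scarna13 lies on the minus strand at chr12:105031075-105031349 in an intron of Snhg10, Scarna6 on the plus strand at chr1:87784556-87784820 in an intron of Atg16l1, and Snord17 on the minus strand at chr2:144265979-144266216 in an intron of Snx5. Snord2 on the plus strand at chr16:23108953-23109021 overlaps an exon of an Eif4a2 transcript. Snora23 on the plus strand at chr7:110046364-110046547 is in an intron of Ipo7. Snora65 on the plus strand at chr2:32963291-32963420 overlaps an exon of an Rpl12 transcript. Snord12 on the plus strand at chr2:167065276-167065365 overlaps an exon of Zfas1, whose row carries the older name 1500012F01Rik.

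The names were checked against these boxes and the annotation, on the sense strand only because the boxes act in RNA. TGATGA stood in the first 20 bases of 34 of 54 Snord rows, 0 of 31 Snora rows and 4 of 7 Scarna rows, and in 0.729% of 18943 other annotated transcripts of 64 to 414 bases, the length range of the members. CTGA stood in the last 15 bases of 48 Snord, 2 Snora and 5 Scarna rows, against 7.77% of those transcripts, and the windows searched for the 2 boxes do not overlap in any row. ACA stood in the last 8 bases of 29 of 31 Snora rows, 6 Snord rows and 2 Scarna rows, against 9.97%. Among the 8 sequences, Snord2 has no exact TGATGA in its first 20 bases, and Scarna13 carries the box of the H/ACA kind. GENCODE gives 91 of the 92 rows a small nucleolar or Cajal body RNA biotype, and Snord43 is annotated as a microRNA.

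Wildtype replicates 1 and 2 held 19218820 and 15790338 reads in genes and mutant replicates 1 and 2 held 22426537 and 14104458, so 3 reads stand for 0.134 to 0.213 CPM, the count scaled to the size of the library. Smarca4 measured 251 and 231 CPM in the wildtype and 282 and 239 CPM in the mutant libraries; a count over the whole gene, in tissue where other cells keep the gene, does not check the labels. Markers of endocardium and cushion mesenchyme were present in all 4 libraries, and those of cardiomyocytes summed to 51538 to 64044 CPM. The 5 leukocyte markers summed to 39.0 and 40.3 CPM in the wildtype and 104 and 102 CPM in the mutant libraries. By edgeR's genotype test 2 of them were called higher, where it called 0.0629% of all genes. In the same order, erythroid markers summed to 583 and 592 against 843 and 647 CPM. Hepatocyte markers summed to 4.85 and 4.73 against 8.98 and 16.8 CPM, and neuron markers overlapped between genotypes. The endocardial marker Npr3 measured 243 and 229 against 124 and 132 CPM, while the endocardial list had a median log2 fold change of 0.01. Apart from the 2 leukocyte markers, no gene of these lists was called by that test. Mutant replicate 2 stood apart: the Y-linked Ddx3y measured 239 CPM there and at most 1.77 CPM elsewhere, and Xist 13.3 CPM against 2047 to 2659 CPM. The tests of single rows are therefore also given without it. In bulk tissue, fewer cells of a type and less RNA per cell cannot be told apart.

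The 92 rows held 14359 reads in all, with a median of 51 reads per row. Scarna rows held 5109 of them in 7 rows (median 251), Snora rows 4930 in 31 rows (median 77) and Snord rows 4320 in 54 rows (median 42.5). Most rows were thin: 33 held 10 to 39 reads, 34 held 40 to 99 and 25 held 100 or more. The 2 most abundant rows, Scarna10 and Scarna13, took 29.3% of all their reads, and the 10 most abundant took 63.8%. By name, 119 rows of the table belong to the 3 classes; 13 had 0 reads and 14 had 1 to 9. Just inside the minimum were Snord33 and Snora52 with 11 reads and Snora20 with 12, and just outside it Snord32a with 9 and Snord42a and Scarna8 with 7.

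**Figure D1:**
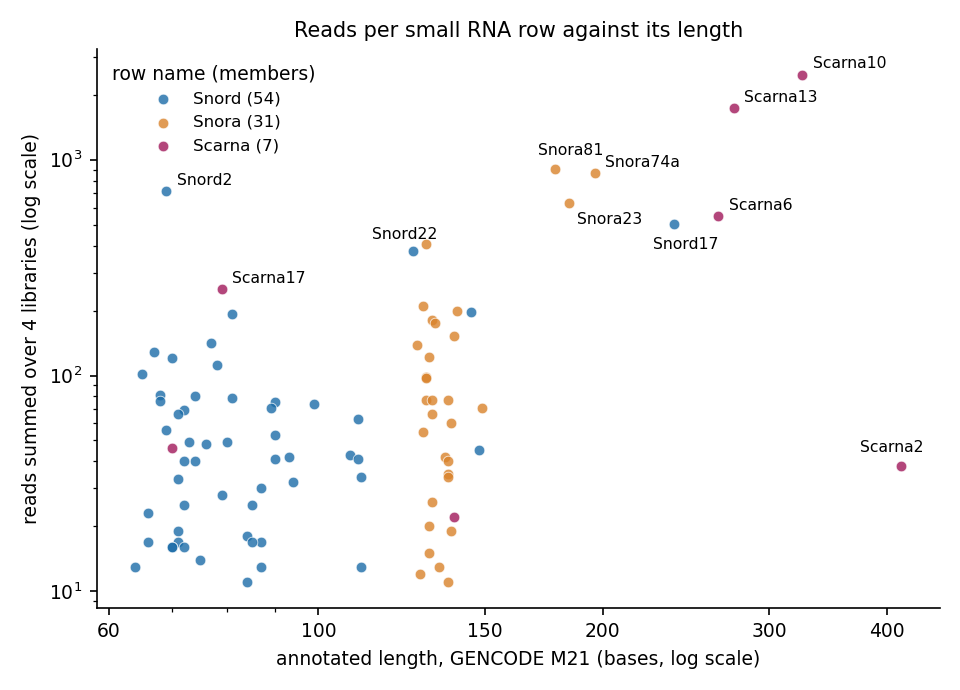
Reads summed over 4 libraries (log scale) against annotated length in bases (log scale) for the 92 rows, 1 point per row, coloured by name. The 8 rows of 150 bases or more lie at the top right apart from Scarna2 with 38 reads, and most rows lie under 100 reads.

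Longer rows held more reads. The 8 rows of 150 bases or more, a boundary chosen after the values were seen, held 53.6% of the reads with a median of 748.5, against a median of 47 for the 84 shorter rows. Across the 92 rows, which share their libraries, log2 reads and length had a Spearman rho of 0.28 and a Pearson r of 0.46. Scarna2, the longest at 414 bases, held only 38 reads, and Snord2, at 69 bases, held 716. Per kilobase of their own length, averaged over the 4 libraries, Snord2 was the highest at 144 CPM, followed by Scarna10 at 120, Scarna13 at 94.4, Snora81 at 72.4, Snora74a at 68.5 and Snora23 at 48.8. Class medians on this scale were 29.1 CPM per kilobase for Scarna, 7.89 for Snora and 7.04 for Snord rows.

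Reads were too few for several RNAs that act in ribosomal RNA cleavage. Snord22 (U22), which is needed for release of the small-subunit ribosomal RNA, held 376 reads. Snord118 (U8) and Snord14a (U14) held 4 reads each over all libraries, and Snord14c and Snord14d held 0. Rows named Snord3a (U3), Snord13 and Snora73a were not analysed here. The 2 rows Snord116l1 and Snord116l2 were at 0 reads and have identical annotated copies, and reads aligned to several places, 16.14% to 16.98% of all tallied reads, were not counted in genes.

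The level of the abundant rows differed between the libraries to unequal degrees. Scarna10, known as U85, is a composite C/D and H/ACA guide for the U5 small nuclear RNA; wildtype replicate 1 had 15.5 CPM and wildtype replicate 2 had 41.0 CPM, while mutant replicate 1 had 14.5 CPM and mutant replicate 2 had 85.1 CPM. Values of other rows follow the same order, replicate 1 before replicate 2. Both libraries of pair 2 were above both of pair 1, and the genotypes overlapped. Scarna13, an H/ACA Cajal body RNA, measured 19.0 and 27.6 CPM in the wildtype and 14.4 and 42.9 CPM in the mutant libraries, and Snora74a (U19), an H/ACA guide of the large ribosomal RNA, 6.02 and 15.5 CPM against 6.21 and 25.9 CPM. Both showed the same order, with mutant replicate 2 highest and wildtype replicate 2 next. Scarna17 measured 4.05 and 5.68 CPM in the wildtype and 1.06 and 4.31 CPM in the mutant libraries, with mutant replicate 1 alone at the low end.

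Other abundant rows differed less across the libraries. Snord2 measured 9.85 and 9.34 CPM in the wildtype and 10.9 and 9.53 CPM in the mutant libraries, and Snora81, from the same host gene, 13.8 and 13.1 CPM against 10.03 and 14.5 CPM. Snora23 measured 8.20 and 8.65 CPM in the wildtype and 8.10 and 10.9 CPM in the mutant libraries. Scarna6, a Cajal body RNA, measured 8.31 and 6.37 CPM against 7.17 and 9.04 CPM. The genotypes overlapped in each of these 4 rows. Snord17 was highest in mutant replicate 1 at 9.51 CPM, with 5.70 to 6.12 CPM in the other 3 libraries. Snora65 measured 6.92 and 4.04 CPM in the wildtype and 6.12 and 5.23 CPM in the mutant libraries, and Snord22 4.31 and 7.13 CPM against 4.53 and 5.58 CPM; both overlapped between genotypes. The remaining Scarna rows were thin: Scarna9 measured 0.479 to 0.847 CPM, Scarna2 0.176 to 0.989 CPM and Scarna3b 0.252 to 0.352 CPM.

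**Figure D2:**
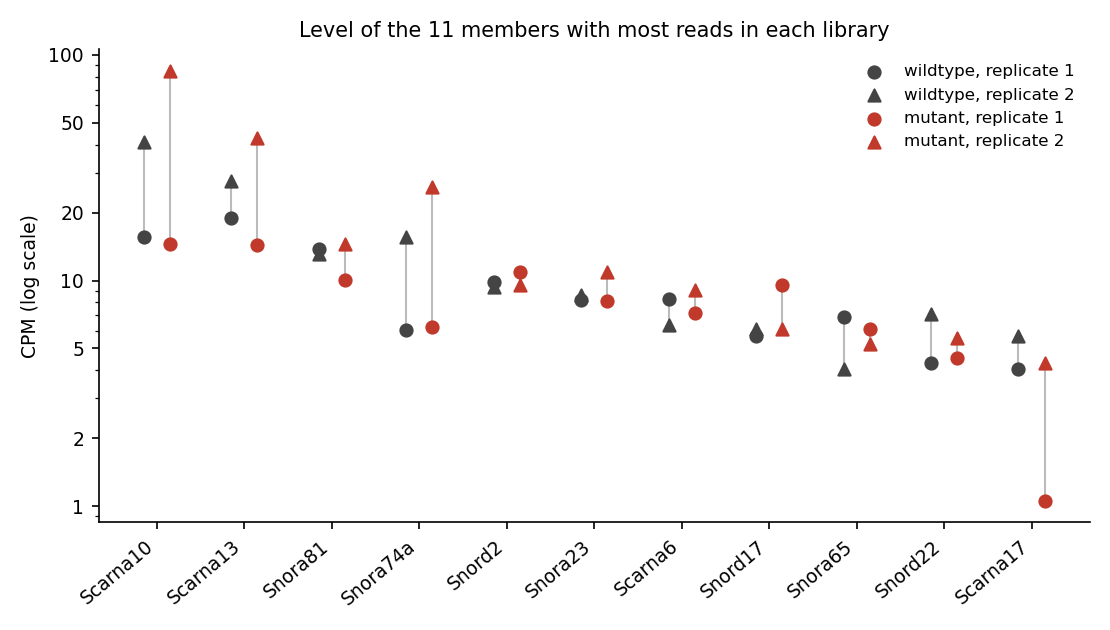
CPM (log scale) of the 11 rows with most reads; grey lines join the 2 libraries of a genotype, circles are replicates 1 and triangles replicates 2. Scarna10, Scarna13 and Snora74a have both triangles above both circles, and in mutant replicate 2 Scarna10 reaches 85.1 CPM.

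The first comparison asks whether the guide RNAs differed between mutant and wildtype cushions. No row was called: 59 of the 92 rows passed the filter on low counts (30 Snord, 23 Snora and 6 Scarna), and edgeR's quasi-likelihood test with Benjamini-Hochberg adjustment over all 14316 genes tested called 0 of them at 0.05, where it called 0.0629% of all genes. At an unadjusted p under 0.05 there were 0 rows higher, against 3.88% of all genes, and 1 lower, Snord12, against 1.9%. DESeq2 called 0 of the 92 rows, against 0.316% of all genes, and had 0 at an unadjusted p under 0.05. The median log2 fold change of mutant over wildtype was 0.03 over the 59 rows and 0.00 over all genes tested, with 30 rows above 0 and 29 below, from -1.15 to 0.81. By class the medians were -0.07 for Snord, 0.03 for Snora and 0.15 for Scarna rows. The authors' deposited table held 11 of these rows, with 0 past an adjusted p of 0.05, against 43 of all its 11507 rows.

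The calls for Scarna10, Scarna13, Snora74a and Scarna17 turned on which mutant library was used, while Snora81, Snord2, Snora23, Scarna6 and Snord17 were called in 0 settings. Scarna10 had a log2 fold change of 0.81 ± 0.67 (SE, n = 2 libraries per genotype; edgeR adjusted p = 0.967). Without mutant replicate 1 its value was 1.60 (edgeR adjusted p = 8.84e-16), and without mutant replicate 2 it was -0.95 (adjusted p = 0.00103), so the direction turned with the library left out. Scarna13, at 0.28 ± 0.41 with all libraries (edgeR adjusted p = 0.979), gave 0.88 (adjusted p = 7.31e-04) and -0.69 (adjusted p = 0.0472) in the same 2 fits. In those fits 3 of 64 rows (Scarna10, Scarna13 and Snora74a, all higher) and 3 of 70 rows (Scarna10, Scarna13 and Scarna17, all lower) were called, against 1.24% and 3.0% of all genes; the lone mutant library is assumed to vary like the wildtype ones. Leaving out wildtype replicate 1 or 2 gave 0 calls, against 0.0411% and 0.0203% of all genes. Without the low count filter, edgeR called Scarna10 (0.80, adjusted p = 0.00243) among 92 rows, against 1.18% of all genes.

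With the replicate number as a block, edgeR also called 0 of 59 rows, where it called 0.887% of all genes, and 3 had an unadjusted p under 0.05, 1 higher and 2 lower, against 4.22% and 2.07% of all genes. They were Scarna10 at 0.51 (adjusted p = 0.683), Scarna17 at -1.08 (adjusted p = 0.284) and Snord12 at -1.15 (adjusted p = 0.724). Within pair 1, Scarna17 was lower in the mutant by -1.83 (log2), and within pair 2 by -0.39. Scarna10 differed by -0.10 within pair 1 and by 1.05 within pair 2. In the authors' deposited table the log2 fold changes, turned to mutant over wildtype, were 0.51 for Scarna10 and -1.08 for Scarna17, with adjusted p of 0.977 and 0.237.

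**Figure D3:**
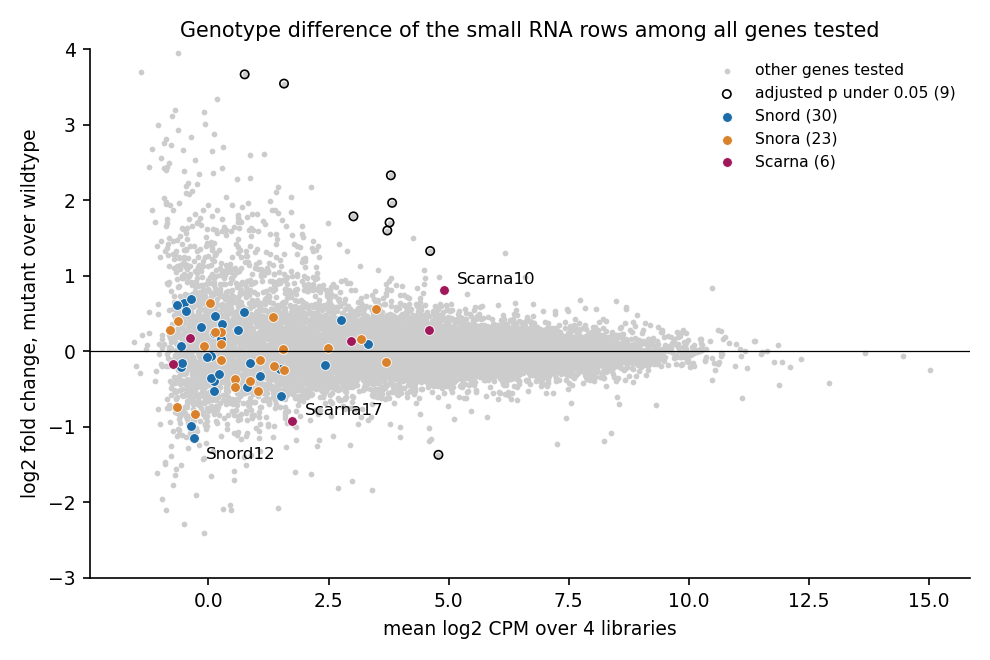
Log2 fold change of mutant over wildtype against mean log2 CPM for the 14316 genes tested; the 59 small RNA rows are coloured by name and open rings mark genes with an adjusted p under 0.05. The axis leaves out 7 genes, 0 of them small RNA rows, and the coloured points lie on both sides of 0 with no ring.

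The mutant libraries lay below both wildtype libraries in 8 of the 59 tested rows, against 16.3% of all genes, and above them in 6, against 17%; 8 and 6 are 13.6% and 10.2% of the rows. Snord12, a C/D guide, measured 1.17 and 0.884 CPM in the wildtype and 0.440 and 0.494 CPM in the mutant libraries. The genotypes did not overlap, yet these are 22, 14, 10 and 7 reads in that order, and the log2 fold change of -1.15 ± 0.49 had an unadjusted p of 0.044 and an edgeR adjusted p of 0.842. Snord85 had 0.852 and 1.01 CPM against 0.440 and 0.494 CPM (-0.99 ± 0.49, edgeR adjusted p = 0.907). Snora28 measured 2.24 and 2.40 CPM in the wildtype and 1.58 and 1.62 CPM in the mutant libraries (-0.53 ± 0.34, edgeR adjusted p = 0.954), and Snora61 1.60 and 1.58 CPM against 1.14 and 1.13 CPM. Snord49a and Snord47, both C/D guides, had log2 fold changes of -0.53 and -0.33.

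Of the rows above both wildtype libraries, Snora3 measured 0.746 and 0.694 CPM in the wildtype and 1.01 and 1.27 CPM in the mutant libraries (0.64 ± 0.44, edgeR adjusted p = 0.958). Snora17 measured 1.81 and 2.40 CPM against 3.12 and 2.61 CPM (0.46 ± 0.33, edgeR adjusted p = 0.961). The C/D rows Snord69, Snord16a, Snord73a and Snord42b had log2 fold changes of 0.69, 0.47, 0.37 and 0.32. These 6 rows and the 6 named lower rows kept their sign in every alternative setting tried, and none was called in any of them. They were named because their genotypes do not overlap, so the kept sign follows from that choice and is no support. For the 25 rows of 100 or more reads the standard error of the log2 fold change had a median of 0.34, and for the 34 tested rows under 100 reads 0.49. A difference of about the size of these errors was not detectable at this depth, and differences of several errors could also go uncalled. The endocardial marker Npr3, outside these rows, had -0.88 ± 0.12 and was not called by the main fit (edgeR adjusted p = 0.0654). It was called with the replicate block (edgeR adjusted p = 0.00646) and by DESeq2 (adjusted p = 4.13e-06). The 0 calls therefore set no close limit on the size of a genotype difference. The 33 rows left out by the filter held 11 to 41 reads.

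As a share of all gene reads, the 92 rows made up 0.0166% and 0.0220% in the wildtype libraries and 0.0160% and 0.0292% in the mutant libraries. The genotypes overlapped, and the ratio of their means was 1.17 (two-sided exact permutation test p = 1, with 0.33 the smallest p that 2 against 2 libraries allow). Scarna rows made up 0.00469% and 0.00828% in the wildtype and 0.00387% and 0.0144% in the mutant libraries, a ratio of 1.41. Snora and Snord rows had ratios of 1.07 and 1.03. Without Scarna10 and Scarna13, the ratio over the other 90 rows was 1.04.

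The second comparison, added after the data were seen, sets pair 2 against pair 1 with genotype in the model. Scarna10, Snora74a and Scarna13 rose in pair 2: edgeR's quasi-likelihood test called 3 of 59 rows, all higher, where it called 0.454% of all genes, 0.3% of them higher. Scarna10 was higher by 1.98 ± 0.23 on the log2 scale (adjusted p = 1.38e-05), with pair 2 at 2.63 times pair 1 in the wildtype and 5.86 times in the mutant. Snora74a was higher by 1.72 ± 0.24 (edgeR adjusted p = 1.67e-04), at 2.58 and 4.18 times. Scarna13 was higher by 1.06 ± 0.22 (edgeR adjusted p = 0.0233), at 1.45 and 2.98 times. With 1 library for each genotype in each pair, whether the difference between pairs depends on genotype could not be tested. Without a genotype term the test called 0 of 59 rows, against 0.0489% of all genes, with values of 2.07, 1.76 and 1.08 and adjusted p of 0.109, 0.109 and 0.482.

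Ddx3y stood at 239 CPM in mutant replicate 2, at 1.77 CPM in wildtype replicate 2 and at 0 in both libraries of pair 1. Leaving out mutant replicate 2 leaves 1 library in pair 2, wildtype replicate 2, set against both libraries of pair 1. The fit then has no genotype term and assumes that the lone library varies like the pair 1 libraries. Its p-values therefore do not show that the calls hold without mutant replicate 2. In it Scarna10 measured 1.44 (edgeR adjusted p = 1.53e-04) and Snora74a 1.34 (adjusted p = 0.00776), while Scarna13 at 0.72 was not called (adjusted p = 0.955). Without mutant replicate 1 Scarna13 was not called either, at 0.88 (adjusted p = 0.196), nor by DESeq2, at 1.05 (adjusted p = 0.183); DESeq2 called Scarna10 and Snora74a, 2 of 92 rows, against 0.188% of all genes. Pair 2 was also the shallower pair, with 15790338 and 14104458 reads in genes, and depth and litter cannot be told apart from the pair.

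Scarna rows had the highest class median between the pairs, though the difference between classes was not tested. Their median log2 difference was 1.10 over 6 rows, against 0.08 over 23 Snora rows, 0.05 over 30 Snord rows and 0.00 over all genes tested. Scarna2, a C/D Cajal body RNA, had the largest value at 2.11 ± 0.59 on 5 and 15 reads in the wildtype and 4 and 14 reads in the mutant libraries, and was not called (edgeR adjusted p = 0.194). Scarna17 had 1.15 ± 0.36 (edgeR adjusted p = 0.323), Scarna9 0.60 and Scarna6 -0.02. The 8 rows of 150 bases or more had a median of 0.66 and the 51 shorter tested rows 0.07. Among the long rows Snora81, Snora23 and Snord17, at 0.23, 0.26 and -0.28, were not called. At an unadjusted p under 0.05 there were 9 of 59 rows, all higher in pair 2, where 2.72% of all genes were higher and 1.9% lower; beside the called rows, Scarna2 and Scarna17, they were Snord15a at 1.27, Snora62 at 1.00, Snord104 at 0.91 and Snord96a at 0.72.

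Counted by library, pair 2 lay above both libraries of pair 1 in 19 of 59 tested rows (32.2%), against 15.7% of all genes, and below them in 10 (16.9%), against 15.4%. Within the genotypes, 25 rows were higher in pair 2 in both, 12 were lower in both, and 3 were more than 2-fold higher in both. Those 3 were Scarna10, Snora74a and Scarna2. These counts within the genotypes were not made over all genes tested, so they cannot be read as particular to these rows.

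**Figure D4:**
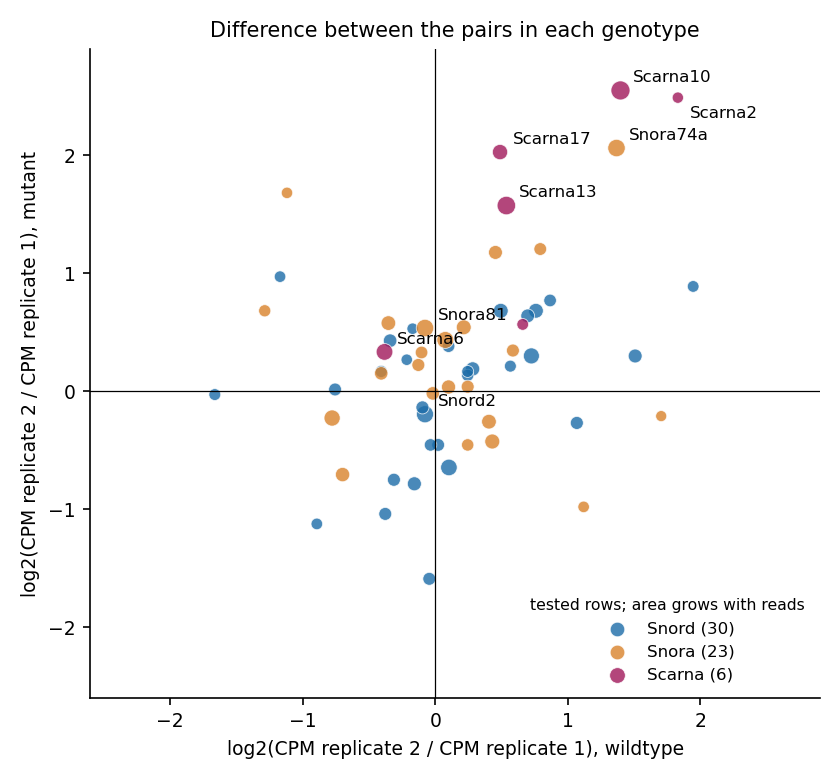
Log2 ratio of CPM in replicate 2 over replicate 1 in the mutant (vertical) against the same in the wildtype (horizontal) for the 59 tested rows, coloured by name with area growing with reads. Scarna10, Scarna2, Snora74a, Scarna17 and Scarna13 lie at the top right, while Snord2, Snora81 and Scarna6 lie near the axes.

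A list of other short noncoding RNAs was set beside these rows. Rmrp, the RNA of RNase MRP, measured 136 and 220 CPM in the wildtype and 163 and 410 CPM in the mutant libraries. It was higher in pair 2 by 1.01 (edgeR adjusted p = 0.0045) and had a genotype value of 0.68 that was not called. Rpph1, the RNA of RNase P, measured 251 and 313 CPM against 229 and 423 CPM, a pair difference of 0.60 (edgeR adjusted p = 0.266). Rnu11 and Rnu12, of the minor spliceosome, had pair differences of 1.48 and 1.30 that were not called, and Terc, the H/ACA-bearing telomerase RNA, 0.04. Rnu73b had -0.83 and was lower in pair 2 in both genotypes, not called. Of the 6 tested genes of this list of short RNAs, 1 was called by pair, against 0.454% of all genes, and 0 by genotype, against 0.0629%. Rprl3, an RNase P RNA-like row outside the list and chosen after its values were seen, measured 15.3 and 25.9 CPM against 18.3 and 37.1 CPM, and was also called higher in pair 2, by 0.89 ± 0.19 (edgeR adjusted p = 0.0309).

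No host gene was called between genotypes or pairs. GENCODE places 87 of the 92 rows inside a gene on the same strand, 47 of them wholly in introns and 40 over an exon of some transcript; 71 of these rows have a protein-coding host, and 27 rows lay in ribosomal protein genes. A host row existed for 85 rows, in 66 different genes. By genotype edgeR's test called 0 of these 66, against 0.0629% of all genes, and by pair 0, against 0.454%. At such shares 0 calls among 66 genes do not set the hosts apart from other genes. Ncapd2, a condensin subunit and host of Scarna10, measured 139 and 122 CPM in the wildtype and 141 and 171 CPM in the mutant libraries, with a pair difference of 0.04 ± 0.17. Snhg10, the noncoding host of Scarna13, measured 0.847 to 1.23 CPM, with -0.33 ± 0.45, and Snhg4, whose span holds Snora74a, 11.9 to 15.3 CPM, with 0.17 ± 0.21. None of the 3 hosts was called (edgeR adjusted p of 1.00 each). Across 53 tested row and host pairs, which share their libraries, the rows' and hosts' log2 differences had a Spearman rho of 0.16 by genotype and 0.14 by pair.

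Row and host levels ranked differently. Across 85 rows the Spearman rho between row and host log2 CPM was -0.12. Per kilobase, with host length taken over its exons, 12 of 75 rows lay above their host. Scarna13 was at 94.4 CPM per kilobase against 2.04 for Snhg10, a ratio of 46.2, Scarna6 at 7.88 times Atg16l1, an autophagy gene, and Scarna10 at 5.26 times Ncapd2. Snord99 in Snhg12 and Snord22 in Snhg1 were at 2.79 and 2.57 times their host. Most rows lay under their host; Snord42b was at 0.0148 times Rpl23a and Snord16a at 0.0178 times Rpl4. The 27 rows in ribosomal protein genes held 2023 reads, with a median of 43, and the 16 tested had a median genotype value of 0.16. Of these 16, 11 lay above 0, against 7081 of all 14316 genes, and 0 were called, against 0.0629%. These rows share their libraries and were not tested as a set.

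**Figure D5:**
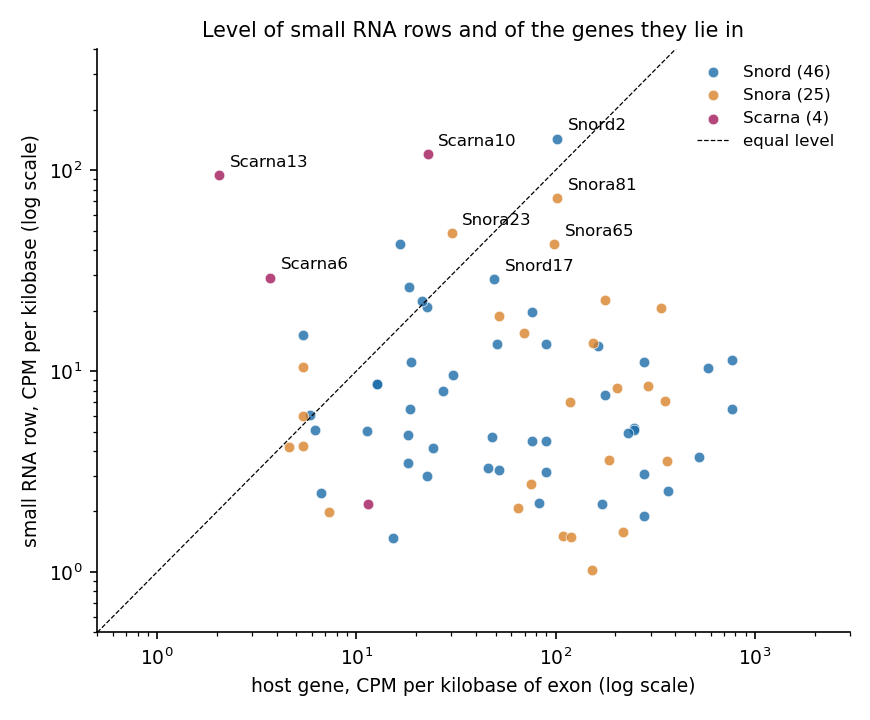
CPM per kilobase of 75 small RNA rows against that of their host gene, both on log scales; the dashed line marks equal levels. Scarna13, Scarna6 and Scarna10 lie above the line, and Snora81 and Snora65 lie under it.

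Rows of one host need not have the same level. In all, 15 host genes held more than 1 row, 34 rows between them. Eif4a2, a translation initiation factor, holds Snora81 and Snord2, which together took 11.3% of the reads. Snhg12 holds 4 rows with 97, 80, 55 and 40 reads, in the order Snora61, Snord99, Snora44 and Snora16a. Their genotype values were -0.48, 0.16, -0.83 and -0.73, and 0 of them were called. In Rps3, Snord15b held 196 reads and Snord15a 45, with genotype values of -0.59 and 0.64, and these related C/D RNAs could share reads. In Rpl13a, Snord35a held 75 reads while Snord34 held 16 and Snord33 held 11. Where a row overlaps an exon or lies in unspliced host RNA, reads of host and guide cannot be told apart without the counting settings, which the labels do not give.

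The proteins that bind, build or trim these RNAs were not called between genotypes. Each list had 0 by edgeR's test, against 0.0629% of all genes. The 5 box C/D proteins had a median log2 fold change of 0.15, with Nop58 at -0.01 and Nop56 at 0.15. The 4 box H/ACA proteins had a median of 0.11, with the pseudouridine synthase Dkc1 at 0.12 and Nop10 at -0.55. The 11 assembly factors tested had a median of 0.05, with Nolc1 at 0.23 and Ruvbl1 at -0.12. The 7 Cajal body and cap genes had a median of 0.01, with Larp7 at -0.08 and the cap methyltransferase Tgs1 at 0.09. The 7 trimming and decay genes had a median of -0.04, with the exonucleases Xrn2 at -0.14 and Exosc10 at 0.12, and the 19 noncoding host genes tested a median of -0.04, with Rian at 0.07 and Meg3 at 0.32. By pair, 0 genes of these 6 lists were called, against 0.454% of all genes. The list medians ran from -0.04 for assembly factors to 0.15 for H/ACA proteins.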

How the data were processed

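RNA of 4 cardiac cushion libraries was sequenced, 2 per genotype. The authors deposited raw read counts per gene symbol. Their own edgeR table gives, per the file headers, log2 values (fold change and CPM), a likelihood ratio score, p-values and, for the rows past 0.05, a linear fold ratio. The submitters' processing notes name Bowtie2, SAMtools, TopHat2, HTSeq, edgeR and mm10. Annotation and strand handling: not given in the sources used here. Reads over a gene and its antisense partner may therefore be mixed. Tallies outside genes were left out of library sizes: 51.8% to 54.4% of tallied reads lay outside features and 0.187% to 0.210% were ambiguous. Without molecular identifiers reads are not independent molecules, so the 3-read limits cover counting error only.

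The genotype test was edgeR 4.0.16 under R 4.3.3 (TMM scaling, filterByExpr, quasi-likelihood F test without a block, Benjamini-Hochberg adjustment over all genes tested, threshold 0.05), and the standard error is the fold change divided by the root of F. CPM uses TMM-scaled library sizes; log2 CPM adds a prior count of 2. Alternatives were DESeq2 1.42.0, limma 3.58.1 (voom), other scalings and filters, a replicate block and each library left out. The pair comparison, the block with DESeq2 or the likelihood ratio test, and the sum without Scarna10 and Scarna13 were added after seeing the data. Replicate numbers were read as pairs because the series text speaks of paired samples and littermates. As a check, same-numbered libraries' deviations from their genotype mean had a correlation of 0.144 over 14316 genes, -0.037 over 10518 genes of at least 5 CPM and 0.382 over the 59 tested rows.

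The members and lists were chosen with earlier results of these data known, and the choice of members used their reads, so levels are described without a test. Named rows were the 8 with most reads, any called, up to 6 per direction of lowest p whose genotypes do not overlap, the ribosomal RNA cleavage guides, all Scarna rows and those at the read minimum. Other rows in the text, such as Snora65, Snord15a and the rows of shared hosts, were picked after their values were seen. Positions and sequences are from GENCODE M21, matched by symbol for 92 of 92 rows. On simulated counts with 200 changed genes among 14123, the genotype test recovered 78%, with 7.14% of its calls false, and the blocked fit 82.5%, with 15.4%. Among 14128 genes the pair test recovered 85%, with 15% of its calls false. The changed genes were drawn at random from all genes simulated, so these shares were not measured for rows as thin as most members.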

Additional observations from a re-analysis of the deposited data

How the results depend on the processing

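The count of rows called by genotype was 0 in 12 of 15 settings, the main fit included. It was 1 without the low count filter, and leaving out 1 library in turn gave 0 to 3, with the 3 coming from either mutant library. The median log2 fold change was 0.03, and 0.03 with the replicate block; it ran from -0.08 to 0.15 over the libraries left out and was -0.12 over the 25 rows of 100 or more reads. The ratio of read shares lay between 1.04 and 1.17. With the pairing as a block the count by genotype was 0, also with the likelihood ratio test or DESeq2. Over the libraries left out, the genotype value of Scarna10 ran from -0.95 to 1.67 and that of Scarna13 from -0.69 to 0.88, and both turned negative without mutant replicate 2. The count by pair was 2 to 4 in 11 of 12 alternatives and 0 without a genotype term; leaving out 1 library in turn gave 2 to 3, in fits with 1 library in an arm and no genotype term. The cause of these changes was not tested. Rows of few reads had the larger median error, yet Scarna10, with most reads, had an error of 0.67, so depth is not the only limit. The fits left 2 residual degrees of freedom, and 1 with the block or the pair term.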

Other observations

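Some annotated small nucleolar RNAs carry other names in the table and fall outside the name rule. AF357355, AF357359, AF357425 and AF357426, on chromosome 12 near the imprinted noncoding genes Rian and Mirg, had mean log2 CPM of 1.86, 3.84, 1.24 and 1.67 over the 4 libraries. AF357359 was the most abundant, at 15.1 and 13.4 CPM in the wildtype and 16.4 and 12.1 CPM in the mutant libraries. Its genotype log2 fold change was 0.00 ± 0.20, and those of the other 3 lay between -0.01 and 0.07, with edgeR adjusted p of 0.994 to 1.00. Between the pairs all 4 were lower in pair 2, with both of its libraries under both of pair 1, the opposite direction to Scarna10, Snora74a and Scarna13. In the order given, their pair 2 over pair 1 log2 values were -0.53 ± 0.32, -0.30 ± 0.21, -0.55 ± 0.36 and -0.67 ± 0.35, and 0 of them were called (edgeR adjusted p of 1.00 each). These rows were chosen after their values were seen.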
